A study of Mus musculus with 24 samples.

Results

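Replication-dependent histone genes encode the core histones H2A, H2B, H3 and H4 and the linker histone H1 that package newly made DNA. They were taken here as all genes whose GRCm38 symbol starts with Hist1h, Hist2h, Hist3h or Hist4h and whose counts, summed over the 24 libraries, reached 20. Of 54446 genes in the table, 70 carry such a symbol, and 48 reached the minimum: 5 of H1, 10 of H2A, 12 of H2B, 11 of H3 and 10 of H4. Hist1h4a, with 24 counts in all, lay just inside the minimum, and Hist1h4k, with 18, just outside. Of the 22 genes below it, 9 had no count in any library, among them Hist1h1t and Hist1h2ba, which encode testis histones. The members together held 20704 counts, between 0.00133% and 0.00957% of a library.

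Most genes of this family lack introns, lie in clusters and are transcribed in S phase, when DNA is copied. Their mRNAs are the known exception among animal mRNAs: the 3′ end is cut just after a short stem-loop, which the stem-loop binding protein Slbp holds, and no poly(A) tail is added. Some family members can also end further downstream at an ordinary poly(A) site, a form known from resting and differentiated cells. Replacement variants such as H3.3 (genes H3f3a and H3f3b) are made throughout the cell cycle from polyadenylated mRNA. The libraries here were made with a stranded mRNA kit that selects poly(A) RNA, so a count reports what that kit retained, and the total amount of histone mRNA was not measured.

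The cells were CD4+ T cells taken from the spleen by immunomagnetic negative selection, which leaves some other cells behind. The mice were C57BL6 wild type (WT) or Aim2-/- (labelled AIM2-/- or KO, a whole-body knockout on the same background). AIM2 is a sensor of cytosolic DNA. Cells of each mouse were left unstimulated (0 h) or cultured with anti-CD3/CD28 antibodies, which activate T cells, for 3, 6 or 24 h, giving 8 groups of 3 libraries from WT mice 1, 3 and 4 and Aim2-/- mice 1, 2 and 4. Libraries held 19715161 to 21627018 counts. Levels below are CPM, counts scaled to a common library size after normalisation, and 3 counts in a library, 0.129 to 0.155 CPM, was used as the floor.

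The labels were checked in each library. Aim2 stood at 32.5 to 75.0 CPM in WT 3 and WT 4 and at 5.28 to 20.1 CPM in the Aim2-/- libraries. In the libraries labelled WT 1 it was 21.5, 17.0, 11.5 and 5.57 CPM in the order of the times, which goes against the label, so calls between the genotypes are given with and without that mouse. The summed level of 7 CD4 T cell markers, Cd3e and Cd4 among them, was 3445 to 4727 CPM. Markers of other cells were present too and were often higher in Aim2-/- libraries; their values stand beside the genotype comparison. In bulk RNA, fewer cells of a type and less RNA per cell cannot be told apart.

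The stem-loop was searched for in the annotated transcripts (GRCm38) on the sense strand as 16 bases of the form GGNNNTNNTNANNNCC whose outer 6 bases on each side pair (G with T allowed), and 35 of the 48 members held it. The forms below are shown because they mark the mRNA end that poly(A) selection does not keep; capitals are the 4 bases of the loop.
18 members, including Hist1h1c and Hist1h3a: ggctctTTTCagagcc
5 members: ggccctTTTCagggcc
5 members: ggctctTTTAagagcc
2 members: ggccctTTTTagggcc
2 members: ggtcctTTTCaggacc
Hist1h4a: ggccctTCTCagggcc
Hist1h3g: ggctctTCTTagagcc
Hist2h2ac: ggctctTTTTagagcc
The stems differed between members by paired changes on both arms. Across the whole annotation, 874 of 141767 transcripts held a match. Among replacement variants only H2afx, the DNA damage variant known to make both kinds of mRNA, held it (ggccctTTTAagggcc), with 822 bases of transcript beyond the loop. The annotated transcript of Hist1h2bj ended 23 bases after its loop and that of Hist1h3a 37 bases after, whereas Hist1h1c had 840 bases and Hist3h2a 1643 bases past the loop, room for a downstream poly(A) site. No match was found in Hist2h2be, a gene with a transcript of 2620 bases, or in Hist1h2bc, which is annotated with introns. Some other members without a match have short annotated transcripts that may stop before the loop. Examples are Hist1h2bl (381 bases), Hist1h2ai (393 bases) and Hist1h3h (411 bases).

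Promoters of 3 members that rose and 2 that fell are shown as examples of the elements these genes carry. Each run is the 150 bases before the start in RefSeq (GRCm38.p6), and capitals mark, on either strand, the CCAAT box, a TATA box (TATAAA), an octamer (ATTTGCAT) and the H1 box (AAACACA). None of these motifs contains another.
Hist1h2bj: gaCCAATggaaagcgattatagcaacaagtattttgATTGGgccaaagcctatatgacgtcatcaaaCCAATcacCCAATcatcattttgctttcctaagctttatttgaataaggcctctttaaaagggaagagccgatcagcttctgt
Hist1h3c: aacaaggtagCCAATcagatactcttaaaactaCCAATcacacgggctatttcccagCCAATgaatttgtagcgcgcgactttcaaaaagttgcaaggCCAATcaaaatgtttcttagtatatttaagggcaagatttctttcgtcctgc
Hist1h1e: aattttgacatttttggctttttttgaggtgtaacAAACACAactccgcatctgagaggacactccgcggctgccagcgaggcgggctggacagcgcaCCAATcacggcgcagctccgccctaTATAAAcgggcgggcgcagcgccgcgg
Hist1h1c: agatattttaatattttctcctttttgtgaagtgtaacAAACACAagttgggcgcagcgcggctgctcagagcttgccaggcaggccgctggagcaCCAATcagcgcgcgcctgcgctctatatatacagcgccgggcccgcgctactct
Hist3h2a: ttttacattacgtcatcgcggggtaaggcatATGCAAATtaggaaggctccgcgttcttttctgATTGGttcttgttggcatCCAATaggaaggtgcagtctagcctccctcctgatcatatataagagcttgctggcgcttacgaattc
These are chr13:22043048-22043197 (plus strand), chr13:23745522-23745671 (minus), chr13:23622559-23622708 (minus), chr13:23738657-23738806 (plus) and chr11:58954535-58954684 (plus). Hist1h1e rose and Hist1h1c fell at 24 h, and both carry the H1 box and a CCAAT box. The octamer shown in Hist3h2a, which fell, is not in the runs of the 3 risers shown. Within the window of 300 bases around the start it is in other risers, Hist1h2ae, Hist1h2bk and Hist1h2bm among them. It is not in the fallers Hist1h1c and Hist3h2ba. Over the window of 300 bases around the start, CCAAT was found in 37 of the 43 members with a promoter entry (86.0%), beside 41.1% of 27025 genes, but in only 3 of 9 H4 genes. TATAAA was in 24 of the 43 (55.8%, beside 15.7% of all genes). The octamer, a site known from H2B promoters, was in 6 of 10 H2A and 6 of 10 H2B promoters and in 12 of the 43 together, beside 1.97% of all genes. The H1 box was in 4 of 5 H1 promoters and 6 of the 43, beside 8.22% of all genes.

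Summed over the family, the level was lower at 3 and 6 h than at rest and highest at 24 h. In WT cells the 48 members summed to 40.2 ± 5.62 CPM at rest (SD, n = 3), to 18.6 ± 0.786 after 3 h, to 13.6 ± 0.470 after 6 h and to 79.9 ± 3.48 after 24 h. The Aim2-/- sums were 47.7 ± 4.99, 27.3 ± 1.53, 26.1 ± 5.39 and 86.1 ± 11.3 CPM in the same order. The 24 h groups lay apart from the 0 h groups in both genotypes: 76.0 to 82.5 against 33.7 to 43.6 CPM in WT and 74.4 to 96.8 against 44.2 to 53.5 CPM in Aim2-/-. The sum is a description, since the members were chosen by their total counts and 38 of the 48 have over 50% of them at 24 h.

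**Figure D1:**
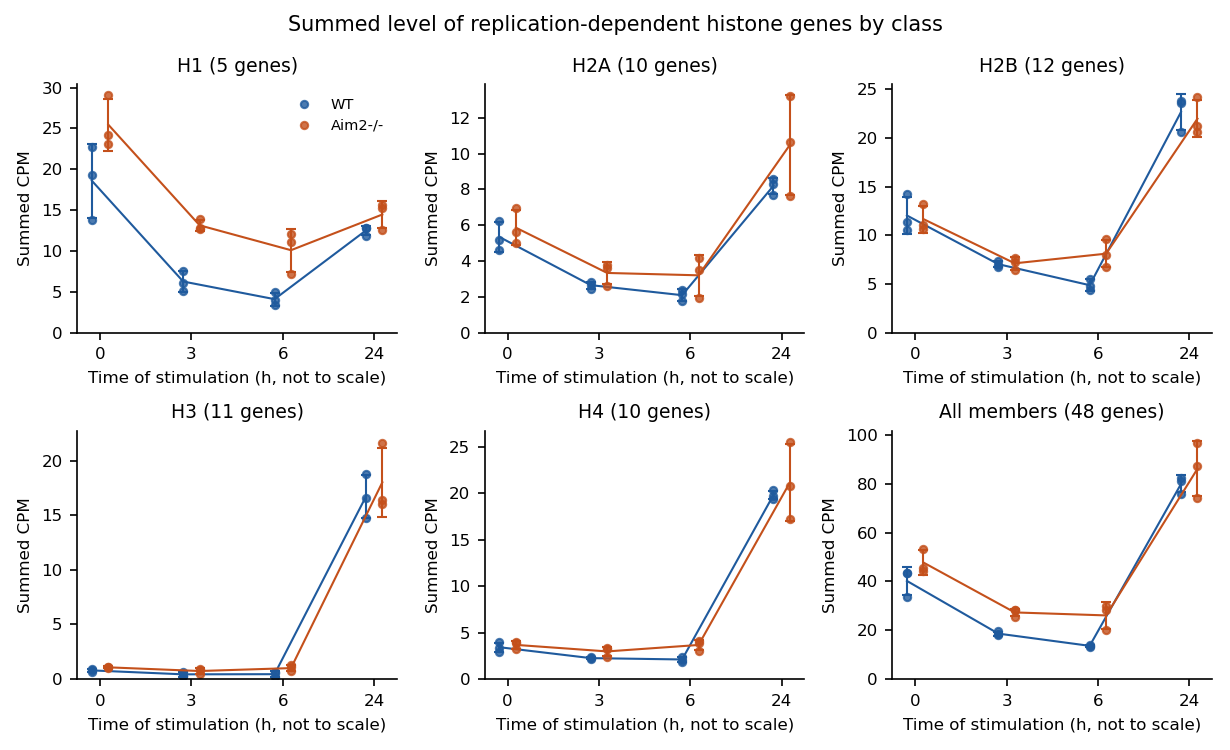
Summed CPM of the members of each histone class and of all 48 members at 0, 3, 6 and 24 h of anti-CD3/CD28 stimulation (time axis not to scale). Points are libraries, lines join group means and bars are the SD of 3 libraries; the H3 sum moves from 0.796 to 16.7 CPM in WT, while the H1 sum is lower at 24 h than at 0 h in both genotypes.

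The classes did not move alike. H3 genes were almost silent at rest and showed the steepest difference, with 0.796 CPM at 0 h and 16.7 CPM at 24 h in WT (20.98-fold) and 1.08 and 18.0 CPM in Aim2-/- (16.7-fold). H4 genes stood at 3.43 CPM at rest and 19.8 CPM after 24 h in WT (5.78-fold), and their Aim2-/- sums were 3.69 and 21.2 CPM (5.75-fold). H2B genes were 1.88-fold higher in both genotypes, and H2A genes 1.54-fold higher in WT and 1.79-fold in Aim2-/-. The H1 sum was lower at 24 h than at rest, by a ratio of 0.672 in WT and 0.568 in Aim2-/-. Hist1h1c alone made up 44.0% of the family's CPM in resting WT cells and 51.7% in resting Aim2-/- cells, and 4.42% and 6.02% at 24 h. Without Hist1h1c the family sum was 3.42-fold higher at 24 h in WT (22.3 to 76.4 CPM) and 3.51-fold higher in Aim2-/- (23.0 to 80.9 CPM).

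The sums also differed by cluster, with mixed directions within Hist1, where Hist1h1c and Hist1h2bc fell. The sum of Hist1 genes, the large cluster on chromosome 13, was 25.5 CPM at rest and 74.9 CPM at 24 h in WT, and 35.1 and 80.7 CPM in Aim2-/-. The Hist2 sum was lower at the later time, with 7.38 and 3.67 CPM in WT and 5.80 and 3.64 CPM in Aim2-/-. Directions were mixed within Hist2 too. Hist2h2be held most of its counts and fell, from 377 to 124 counts in WT. In both genotypes Hist2h4 and Hist2h3c2 also had fewer counts at 24 h, and Hist2h2bb, Hist2h2ac and Hist2h3b had more. The Hist3 sum was 7.02 CPM at rest and 0.887 CPM at 24 h in WT, and 6.56 and 1.19 CPM in Aim2-/-. Hist4h4, the only Hist4 member, stayed under 0.6 CPM in every group mean. The number of members with a mean of 0.5 CPM or more was 6 at 0 h and 34 at 24 h in WT, and 7 and 35 in Aim2-/-.

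At 24 h, 35 of the 38 members tested were called in WT (30 higher and 5 lower) and 34 in Aim2-/- (29 higher and 5 lower). The test was edgeR's quasi-likelihood test with Benjamini-Hochberg adjustment over 15325 genes at an adjusted p under 0.05. Over all genes tested, 71.4% were called in WT (36.6% higher, 34.8% lower) and 70.3% in Aim2-/- (36.8% higher, 33.5% lower). Most members passed the filter on low counts through their 24 h libraries. These counts, and any p-value of such a member, are therefore a description and not support. The groups at 0 and 24 h did not overlap for 30 members higher and 5 lower in WT (39.3% and 37.3% of all genes) and for 31 higher and 5 lower in Aim2-/- (37.3% and 33.6%). The median log2 difference of the tested members was 3.82 in WT and 3.90 in Aim2-/-, beside -0.01 and 0.03 over all genes tested. The filter favours members that are high at 24 h, so these medians are a description too. With members that had 3 or fewer counts in every library at rest set at their lower bound, the medians were 2.66 and 3.01. Called higher in both genotypes were 29 members, 4 of H1, 5 of H2A, 7 of H2B, 7 of H3 and 6 of H4, all in the Hist1 cluster. The 10 untested members were Hist2h4, Hist2h3c2, Hist2h2ac, Hist1h3b, Hist1h3d, Hist2h3b, Hist1h4j, Hist1h2ah, Hist1h2an and Hist1h4a.

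**Figure D2:**
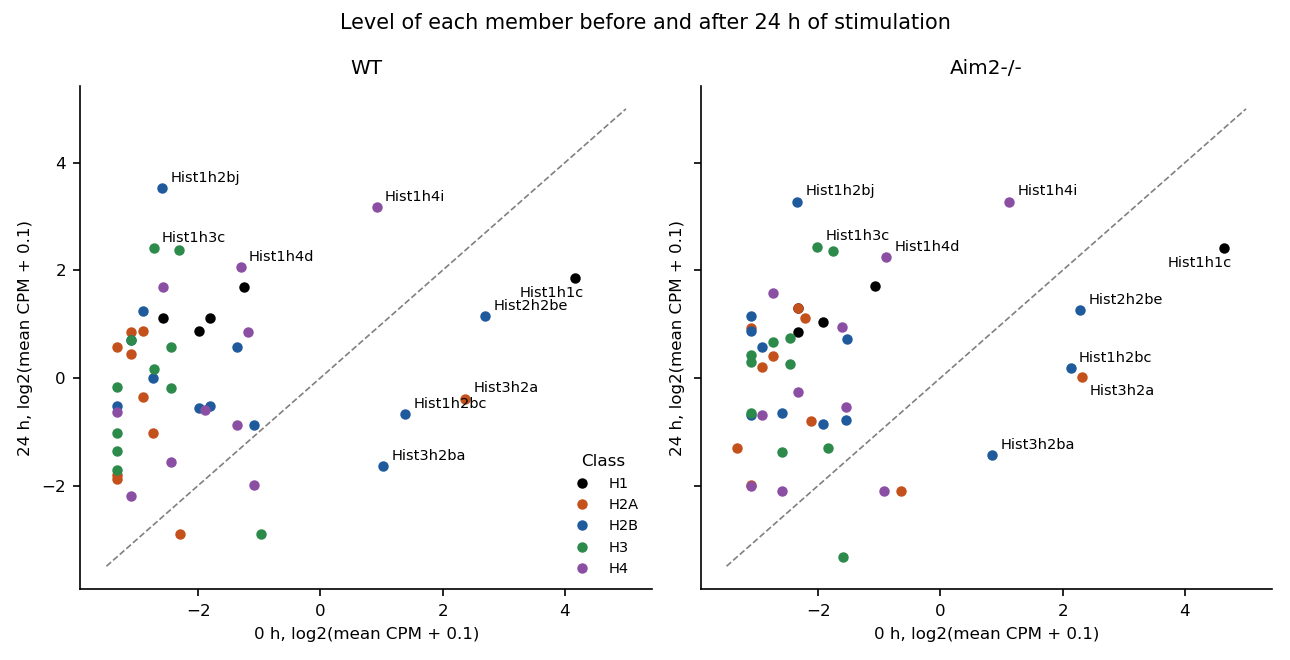
Level of each of the 48 members at 0 h (x axis) and at 24 h (y axis), as log2 of the mean CPM of 3 libraries plus 0.1, in WT (left) and Aim2-/- (right), coloured by class. On the dashed line the levels are equal; Hist1h1c, Hist2h2be, Hist3h2a, Hist1h2bc and Hist3h2ba lie below it in both genotypes, and most other members lie above it from levels near 0.

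The member that rose to the highest level was Hist1h2bj (chr13:22043214-22043676, plus strand), which encodes an H2B. In WT it had 0.200, 0 and 0 CPM at rest and 10.1, 13.1 and 11.2 CPM at 24 h. Its log2 difference was 7.29 ± 0.64 (SE), on a baseline of 4 counts. Its 24 h libraries held 96.8% of its counts and carried it past the filter, so no p-value is given. In Aim2-/- it had 0.145, 0 and 0.148 CPM at rest and 9.93, 9.47 and 9.34 CPM at 24 h. The ratio of counts was 97.9, with an exact 95% interval of 44.7 to 268. It was thus near absent from all 6 resting libraries and above 9 CPM in all 6 at 24 h. At 3 and 6 h it was still low, at 0.134 and 0.239 CPM per kb in WT against 24.8 CPM per kb at 24 h.

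Hist1h4i, the H4 gene with the most counts (chr13:22040636-22041362, minus strand), differed in that it was already present at rest. Its WT level was 1.90, 1.65 and 1.83 CPM at 0 h, 0.787, 0.944 and 1.12 CPM at 3 h, and 9.27, 8.84 and 8.57 CPM at 24 h (2.31 ± 0.23, adjusted p = 8.66e-09). In Aim2-/- it was 2.52, 1.87 and 1.87 CPM at 0 h and 9.83, 7.91 and 10.98 CPM at 24 h (2.19 ± 0.22, adjusted p = 1.85e-08). Its first 3 h in WT went the other way, down by a log2 of -0.91, before the rise. Hist1h4d rose from 0.250, 0.207 and 0.456 CPM to 3.75, 3.80 and 4.62 CPM in WT (3.71 ± 0.41). In Aim2-/- it rose from 0.436, 0.640 and 0.246 CPM to 5.18, 3.02 and 5.69 CPM (3.38 ± 0.39). Hist1h4f had no count in resting WT cells and 0.557, 0.617 and 0.462 CPM at 24 h, at least 3.58-fold higher.

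The H3 genes Hist1h3a and Hist1h3c started at or under the floor in WT. Hist1h3a had 0.10, 0.103 and 0.101 CPM at rest and 4.26, 5.50 and 5.49 CPM at 24 h in WT, a ratio of counts of 49.99 with an exact 95% interval of 22.7 to 137. In Aim2-/- it went from 0.339, 0.197 and 0.0492 CPM to 4.45, 4.99 and 5.69 CPM (4.65 ± 0.63). Hist1h3c had 0.050, 0.103 and 0 CPM at rest and 4.91, 5.19 and 5.49 CPM at 24 h in WT, a ratio of 102 (34.7 to 499). In Aim2-/- it had 0.242, 0 and 0.197 CPM against 5.18, 4.53 and 6.26 CPM (5.13 ± 0.66). Every library at 24 h stood above every library at rest for both genes. Such intervals and floors cover counting error only, and reads without molecular identifiers are not independent molecules. Hist1h3h rose from no count to 0.405, 0.976 and 0.975 CPM in WT, at least 5.16-fold, but only 6.09% of its 51-base windows are unique to it, so its count is uncertain.

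Among linker histones, 4 of the 5 rose and Hist1h1c fell. Hist1h1e went from 0.300, 0.155 and 0.507 CPM to 3.29, 3.08 and 2.98 CPM in WT (3.25 ± 0.48). In Aim2-/- it went from 0.194, 0.443 and 0.492 CPM to 2.84, 3.63 and 3.08 CPM (3.06 ± 0.47). It overlaps Hist1h2be in the annotation. Hist1h1b, at 0.050, 0.0517 and 0.101 CPM in resting WT cells, reached 1.67, 2.31 and 2.21 CPM at 24 h. Hist1h1a went from 0.10, 0.207 and 0.254 CPM to 1.93, 1.70 and 2.57 CPM, and Hist1h1d from 0.250, 0.103 and 0.101 CPM to 2.23, 1.23 and 1.75 CPM. The groups at 0 and 24 h did not overlap for any of the 4.

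Several H2A and H2B genes of the Hist1 cluster rose from near 0. Hist1h2ag had no count at rest in WT and 1.47, 1.28 and 1.39 CPM at 24 h, at least 9.05-fold higher. Hist1h2ae went from 0, 0.0517 and 0 CPM to 1.47, 2.16 and 1.49 CPM in WT, a ratio of counts of 101 with a wide interval of 17.7 to 4020. Hist1h2bk went from 0.050, 0.0517 and 0 CPM to 2.08, 2.72 and 2.00 CPM (ratio 66.9, 18.2 to 558), and Hist1h2bm from 0, 0 and 0.0507 CPM to 1.27, 1.75 and 1.59 CPM (ratio 90.6). In Aim2-/- the ratios of Hist1h2ag, Hist1h2bk and Hist1h2bm were 110, 130 and 107. Hist1h2bl, with 0.861, 0.360 and 0.565 CPM at 24 h in WT and no count at rest, was at least 3.91-fold higher, with 17.5% of its windows unique. Each of these resting groups held 3 counts or fewer, so the sizes of the ratios are loose while the groups stayed apart.

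Hist1h1c fell the most in CPM. This gene (chr13:23738808-23740367, plus strand) encodes the linker histone H1.2. It had 13.1, 18.8 and 21.8 CPM in resting WT cells, 5.51, 6.80 and 4.81 CPM after 3 h, 2.88, 3.46 and 4.48 CPM after 6 h, and 3.70, 3.55 and 3.34 CPM after 24 h. The log2 difference at 24 h was -2.34 ± 0.25 (adjusted p = 4.24e-08). In Aim2-/- it had 23.8, 22.4 and 28.0 CPM at rest, then 12.3, 12.1 and 13.3 CPM, 10.9, 6.47 and 10.5 CPM, and 6.85, 3.32 and 5.54 CPM at the last time (-2.24 ± 0.25, adjusted p = 7e-08). Most of the WT loss was present by 3 h, and no resting library overlapped any later one in either genotype.

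Hist3h2a and Hist3h2ba, genes for H2A and H2B close together on chromosome 11, both fell. Hist3h2a (chr11:58954685-58956830) had 4.85, 5.94 and 4.46 CPM at rest and 0.507, 0.411 and 1.08 CPM at 24 h in WT (-2.92 ± 0.33, adjusted p = 6.17e-08). In Aim2-/- it went from 4.79, 4.28 and 5.51 CPM to 1.13, 0.856 and 0.770 CPM (-2.40 ± 0.31, adjusted p = 7.47e-07). It overlaps Trim17 on the same strand, so its reads are uncertain. Hist3h2ba went from 1.5, 2.27 and 2.03 CPM to 0.203, 0.308 and 0.154 CPM in WT (-3.09 ± 0.39, adjusted p = 4.17e-07), and from 1.84, 1.48 and 1.77 CPM to 0.147, 0.403 and 0.257 CPM in Aim2-/- (-2.63 ± 0.38, adjusted p = 2.98e-06). Of the 4 genes listed beforehand as testis-type, it was the only one that reached the minimum, and its place on that list was not checked. The others held 0, 0 and 2 counts.

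The remaining falls were in the H2B genes Hist2h2be and Hist1h2bc. Hist2h2be (chr3:96221119-96223738) had 5.35, 7.91 and 5.93 CPM at rest and 1.87, 1.39 and 3.08 CPM at 24 h in WT (-1.59 ± 0.28, adjusted p = 3.6e-05). Its Aim2-/- values, 3.83, 5.42 and 5.12 CPM at rest and 3.33, 1.76 and 1.80 CPM at 24 h, were closer (-1.06 ± 0.28, adjusted p = 0.0022). Hist1h2bc (chr13:23684199-23692908) went from 2.45, 3.00 and 2.13 CPM to 0.608, 0.463 and 0.513 CPM in WT (-2.24 ± 0.34, adjusted p = 4.88e-06) and from 3.87, 3.79 and 5.17 CPM to 1.27, 0.907 and 0.923 CPM in Aim2-/- (-2.04 ± 0.32, adjusted p = 7.65e-06). The groups did not overlap for either gene. Counting mice rather than groups, 35 of the 48 members were higher at 24 h than at rest in all 6 mice and 7 were lower in all 6. The like share of all genes was not counted, and members were chosen by counts mostly at 24 h. The tally is therefore only a description.

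Members with no call at 24 h were few. Hist1h2be (0.25, adjusted p = 0.694 in WT and 0.97, adjusted p = 0.13 in Aim2-/-), Hist4h4 (0.62, adjusted p = 0.39 and 1.24, adjusted p = 0.0813) and Hist1h2ac (-1.43, adjusted p = 0.357 and -1.96, adjusted p = 0.0532) passed in neither genotype. Hist2h2bb was called higher in WT only (1.88, adjusted p = 0.0298, against 1.44, adjusted p = 0.094 in Aim2-/-), and the test of that difference between genotypes made no call. None of its 51-base windows is unique to it.

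**Figure D3:**
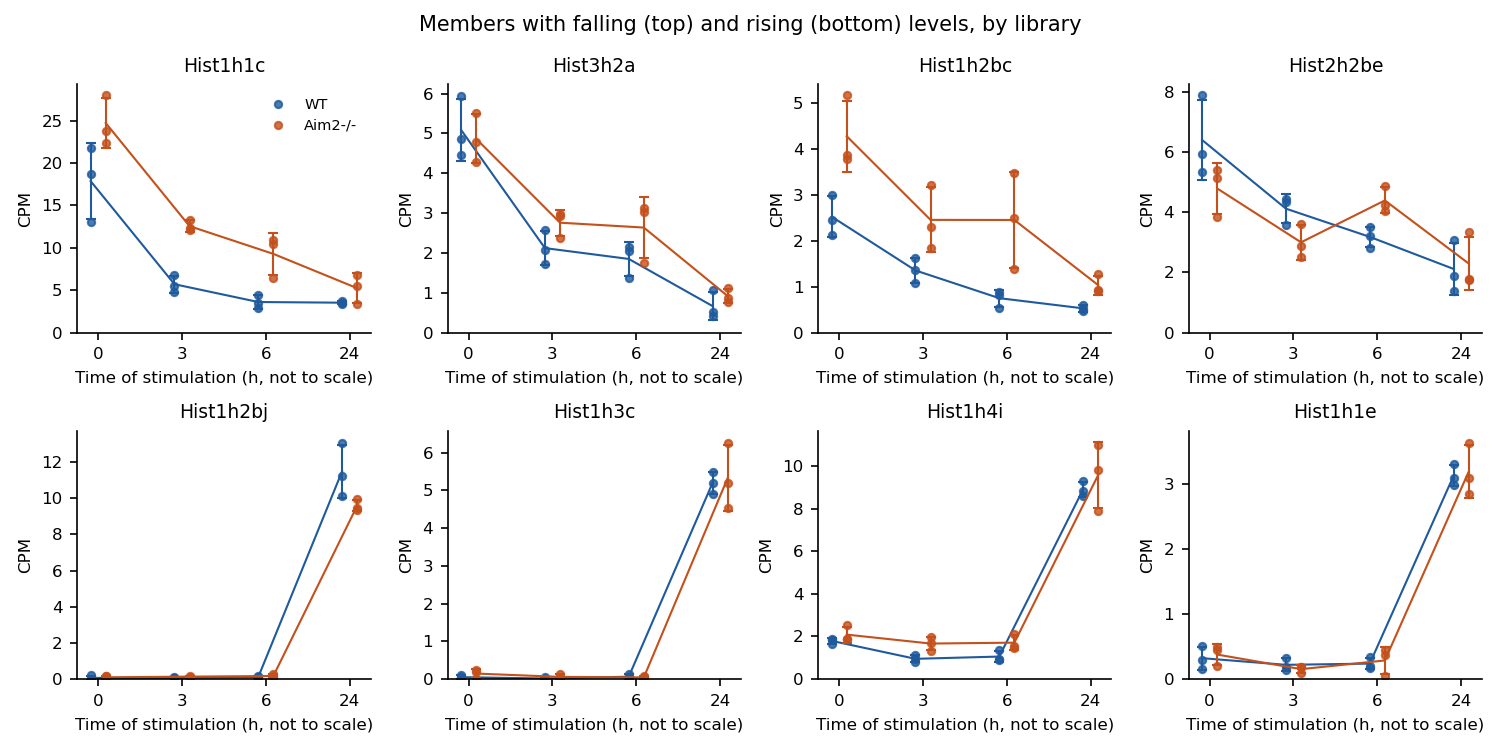
CPM of 4 falling members (top row) and 4 rising members (bottom row) at 0, 3, 6 and 24 h (time axis not to scale). Points are libraries, lines join the group means and bars are the SD of 3 libraries; Hist1h1c falls by 3 h, while Hist1h2bj, Hist1h3c and Hist1h1e stay near 0 until 24 h.

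All members called at 3 and 6 h were lower than at rest. These comparisons share the 0 h libraries with those at 24 h. At 3 h, 6 of 38 members were called in WT, all lower, beside 32.6% of all genes (16.2% higher, 16.4% lower): Hist1h1c (-1.65), Hist3h2a (-1.26), Hist3h2ba (-1.04), Hist1h4i (-0.91), Hist1h2bc (-0.90) and Hist1h2bg, which had 11 counts at rest and 1 at 3 h. In Aim2-/- 5 were called, all lower, beside 30.7% of all genes (16.1% higher, 14.6% lower): Hist1h1c (-0.98), Hist3h2ba (-0.92), Hist3h2a (-0.82), Hist1h2bc (-0.80) and Hist1h3g, whose 5 and 0 counts are at or under the floor and give no fold. The counts rest on few libraries: 3 were called in WT without the 0 h or the 3 h library of mouse WT 3, and 1 to 3 in Aim2-/- without any of the 6 libraries compared.

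At 6 h, 7 members were called in WT, all lower, beside 51.1% of all genes (26.4% higher, 24.8% lower): Hist1h1c (-2.31), Hist3h2ba (-2.18), Hist1h2bc (-1.74), Hist1h2be (-1.70, 22 counts against 7), Hist3h2a (-1.46), Hist2h2be (-1.01) and Hist1h4i (-0.76). In Aim2-/- 5 were called, all lower, beside 51.2% (28.5% higher, 22.7% lower): Hist1h2ac (-2.47), Hist3h2ba (-1.60), Hist1h1c (-1.41), Hist3h2a (-0.88) and Hist1h2bc (-0.80). Of these, 3 were called without the Aim2-/- 4 library at 0 h, and 2 without the Aim2-/- 2 library at 6 h or without mouse Aim2-/- 4. A member was called higher at 6 h or 3 h only under some alternatives: Hist1h4b at 6 h in Aim2-/- with library totals, limma-voom or without the Aim2-/- 2 library at 0 h, Hist1h2bj at 6 h in WT without the 0 h library of WT 1 or that whole mouse, and Hist1h1b at 3 h in Aim2-/- without mouse Aim2-/- 4. The shares of members called lower at 3 and 6 h were near or under those of all genes. Most other members held too few counts before 24 h to show a fall. In all 6 mice, 7 members were lower at 3 h and 9 at 6 h than at rest, and none was higher. How many of all genes moved alike in all 6 mice was not counted, so this is not particular to the family.

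The sequence of the transcripts was set beside the direction at 24 h. Of the 29 members higher in both genotypes, 22 held the stem-loop, with a median of 60.5 bases annotated beyond it and 12 with under 100 bases. Their median transcript length was 530 bases, from 381 to 7425. The 7 without a match include Hist1h2ai, Hist1h2ak, Hist1h2bl, Hist1h3h and Hist1h3i, whose annotated transcripts of 381 to 411 bases may stop before the stem-loop. Of the 5 lower in both, 3 held it, with a median of 840 bases beyond, and their median length was 1560 bases, from 614 to 2620. The groups overlap, since 10 of the risers with a loop had 100 or more bases beyond it, Hist1h1e 1153 and Hist1h4d 770 among them. Of 7 listed genes known from other work to make polyadenylated mRNA in cells that do not divide, 6 were tested. In both genotypes 4 were lower (Hist1h1c, Hist1h2bc, Hist2h2be and Hist3h2a), Hist1h4c was higher and Hist4h4 was not called. Over all genes, 34.8% were called lower and 36.6% higher in WT, and 33.5% and 36.8% in Aim2-/-. The list was chosen with earlier results of these data known, so it is no outside check.

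Genes read from a shared promoter region did not always reach like levels. The family holds 11 head-to-head pairs: 10 of an H2A and an H2B gene or pseudogene, with starts 172 to 301 bases apart, and the H2B and H3 pair Hist1h2bh and Hist1h3f, 659 bases apart. Hist1h2ag and Hist1h2bj start 269 bases apart, and at 24 h in WT stood at 2.85 and 24.8 CPM per kb of exon, with 21.1% and 40.9% of their 51-base windows unique. Hist1h2ae and Hist1h2bg (175 bases apart) stood at 2.42 and 0.966 CPM per kb. Hist2h2ac and Hist2h2be (238 bases apart) moved in opposite directions in WT, from 0.0972 to 0.754 and from 2.44 to 0.807 CPM per kb, the first being untested, and so ended at like levels. In the pair 250 bases apart, Hist1h2ac stayed at 0.0413 and 0.0137 CPM per kb while Hist1h2bc went from 2.19 to 0.457 CPM per kb.

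Near-identical coding sequences limit what can be said of single genes. How reads that match several genes were counted is not given in the sources used here. The share of a gene's 51-base windows found in no other gene was used as a guide, 51 bases being the read length. Its median was 55.7% for the 48 members, 33.0% for the 13 genes with 1 to 19 counts and 6.94% for the 9 with none. Hist1h1t, though fully unique, had no count. Under 20% of windows were unique in 8 members, namely Hist1h2ai, Hist1h3h, Hist1h3i, Hist2h2bb, Hist1h2bl, Hist2h3b, Hist1h2ah and Hist1h2an, whose values are uncertain. Hist2h2bb shared its windows only with Gm42743 and Gm20628, genes annotated over the same place, and not with another histone gene. The members lower in both genotypes had 68.6% to 100% unique windows, and Hist1h1c 91.6%.

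**Figure D4:**
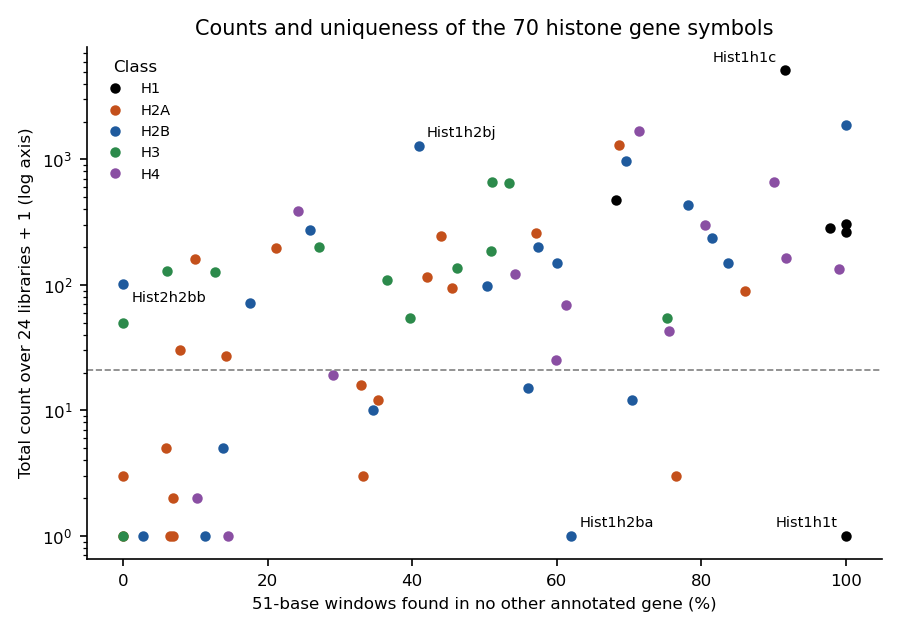
Total count over the 24 libraries plus 1 (log axis) against the percent of 51-base windows found in no other annotated gene, for the 70 histone gene symbols, coloured by class. The dashed line is the minimum of 20 counts; 7 of the 9 genes with no count have under 20% unique windows, the exceptions being Hist1h1t and Hist1h2ba.

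Between the genotypes, Hist1h1c and Hist1h2bc were higher in Aim2-/- cells at 6 h. Hist1h1c stood at 10.9, 6.47 and 10.5 CPM against 2.88, 3.46 and 4.48 CPM in WT (log2 difference 1.37 ± 0.25, adjusted p = 0.00484), and Hist1h2bc at 3.47, 1.39 and 2.502 CPM against 0.887, 0.535 and 0.828 CPM (1.70 ± 0.32, adjusted p = 0.00561). Without mouse WT 1 both calls held (1.22, adjusted p = 0.0152, and 1.84, adjusted p = 0.0142). Fitted on the 6 h libraries alone, Hist1h1c was called (adjusted p = 0.042) and Hist1h2bc narrowly missed (adjusted p = 0.0504). Hist1h2bc was also lost when mouse WT 3 (adjusted p = 0.0578), mouse WT 4 (adjusted p = 0.0521) or the 6 h library of Aim2-/- 1 (adjusted p = 0.0561) was left out, whereas Hist1h1c was called at 6 h in every fit that left out a library or a mouse (adjusted p = 0.000324 to 0.0498).

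Hist1h4i and Hist1h4b were also called higher at 6 h, less firmly. Hist1h4i stood at 2.11, 1.48 and 1.54 CPM against 0.931, 1.36 and 0.876 CPM (0.69 ± 0.23, adjusted p = 0.0495) and missed the threshold without any single 6 h library except that of Aim2-/- 2 (adjusted p = 0.0542 to 0.252), without mouse WT 1 (adjusted p = 0.156), with DESeq2 (adjusted p = 0.073) and with limma-voom (adjusted p = 0.0841). Hist1h4b had 13 counts against 1, a ratio of 12.7 with an interval of 1.91 to 539, and missed the threshold without any single 6 h library except that of Aim2-/- 2 and without any mouse except Aim2-/- 2 (adjusted p = 0.0505 to 0.157, and 0.106 without mouse WT 1). These 4 calls among 38 members stand beside 15.8% of all genes called at 6 h (8.78% higher, 7.01% lower). The share called higher was close to that of all genes, so the count is not particular to histone genes. Without regard to the test, 8 members were higher and 0 lower with no overlap of the groups at 6 h, beside 18.6% and 17.0% of all genes. The median log2 difference of the members at 6 h was 0.69, beside 0.05 over all genes, and 0.92 without mouse WT 1. Only 5 members in WT and 7 in Aim2-/- had a mean of 0.5 CPM or more at 6 h. The median thus rests mostly on low counts and does not show a shift of the whole family.

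At 3 h only Hist1h1c was called, at 12.3, 12.1 and 13.3 CPM in Aim2-/- against 5.51, 6.80 and 4.81 CPM in WT (1.14 ± 0.24, adjusted p = 0.0462, beside 0.294% of all genes called, 0.254% higher and 0.0392% lower). It was called without mouse WT 1 as well (1.11, adjusted p = 0.0376) but not when the fit held the 3 h libraries alone (adjusted p = 0.205), nor without any single 3 h library except that of Aim2-/- 2 (adjusted p = 0.0558 to 0.243 otherwise). The groups did not overlap. At 0 h and 24 h edgeR, DESeq2 and limma-voom called no member, with 2 members at an unadjusted p under 0.05 in edgeR at each time, beside 5.23% of all genes called at 0 h, made up of 3.24% higher and 1.99% lower. At 24 h 0.666% of all genes were called (0.659% higher, 0.00653% lower). Groups without overlap numbered 3 higher and 2 lower at 0 h (14.1% and 14.4% of all genes), 3 and 2 at 3 h (7.8% and 7.31%) and 3 and 1 at 24 h (11.1% and 10.2%). At 0 h Hist1h2bc differed by 0.76 (adjusted p = 0.128) and Hist1h1c by 0.47 (adjusted p = 0.227). The difference between the genotypes in the response to stimulation was called for no member at 3, 6 or 24 h by the same 3 tools, with 1, 6 and 0 members at an unadjusted p under 0.05 in edgeR, beside 0.0%, 0.0261% and 0.0% of all genes called in edgeR. Over all genes, DESeq2 called 0, 255 and 151 genes for this difference, and edgeR with mouse as a block called 9, 717 and 424, with no member among the latter.

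Markers of other cell types moved with the genotype at the same times. At 6 h the 3 plasma cell markers summed to 346 to 765 CPM in Aim2-/- against 30.7 to 147 CPM in WT, the 5 myeloid markers to 46.2 to 162 against 15.3 to 37.6 CPM, the 4 neutrophil precursor markers to 58.9 to 142 against 9.59 to 19.02 CPM and the 3 basophil and mast cell markers to 64.6 to 130 against 7.40 to 14.2 CPM. Every marker of these lists had the higher mean in Aim2-/-, and none was at 0 in all libraries of a group. The 6 erythroid markers summed to 23.2 to 498 against 8.08 to 64.9 CPM, the 3 NK cell markers to 7.39 to 12.4 against 5.85 to 10.4 CPM, and the 2 CD8 markers to 8.08 to 13.4 against 7.74 to 8.96 CPM, so these ranges overlapped. At 3 h the plasma cell and neutrophil precursor sums were 219 to 602 against 27.3 to 185 CPM and 91.7 to 214 against 16.2 to 32.4 CPM. Their part in the histone differences was not tested.

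Replacement variants, kept in poly(A) form, did not follow the family. Of 10 tested at 24 h, 3 rose and 4 fell in both genotypes, and the median log2 difference was 0.07 in WT and -0.09 in Aim2-/-. Over all genes tested, 36.6% were called higher and 34.8% lower in WT, and 36.8% and 33.5% in Aim2-/-. H2afx rose by a log2 of 1.09 in WT (37.5 CPM at rest, 79.97 CPM at 24 h) and of 1.12 in Aim2-/- (52.2 and 114 CPM), H2afy (macroH2A) rose by 1.20 and 1.09, and H2afj by 0.47 and 0.52. H2afv (-1.24 and -1.08) and H2afz (-0.94 and -0.91), both H2A.Z genes, Cenpa of centromeric chromatin (-0.71 and -0.38) and H3f3b (-0.27 and -0.36) fell. H3f3b was far above any member, at 462 CPM at rest and 384 CPM at 24 h in WT. Per kb of exon, the H3 members together went from 1.06 to 27.9 CPM in WT, and H3f3a and H3f3b together from 159 to 133. The H3.3 genes thus gave most H3 reads per length at both times. Poly(A) selection does not keep mRNA that ends at the stem-loop, so such read levels do not compare the amounts of mRNA. All 48 members went from 29.0 to 124 CPM per kb and the replacement variants from 336 to 351 in WT, with 35.1 to 130 and 392 to 400 in Aim2-/-. At 6 h 5 of the variants were called higher in Aim2-/- than in WT (H1fx 1.61, H1f0 0.96, H2afv 0.78, Cenpa 0.67 and H2afx 0.60), and no variant was called lower, beside 8.78% of all genes higher and 7.01% lower. Without mouse WT 1, H2afx was lost (0.57, adjusted p = 0.0699) and the other 4 were called (adjusted p = 0.00674 to 0.0174).

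Factors that make and destroy histone mRNA rose unevenly at 24 h. Slbp, at 71.4 CPM in resting WT cells, stood at 259 CPM after 24 h, a log2 rise of 1.86, and in Aim2-/- at 83.8 and 233 CPM, a rise of 1.47. Of the 20 listed, 14 rose and 4 fell in WT, and 12 rose and 5 fell in Aim2-/-, beside 36.6% and 34.8% of all genes in WT and 36.8% and 33.5% in Aim2-/-. Zfp473, the zinc finger protein of histone mRNA processing, rose by 1.62 and 1.46, Eri1, the exonuclease that trims the histone mRNA end, by 0.92 and 0.69, and Lsm10 of the U7 particle by 0.59 and 0.60, whereas its partner Lsm11 was not called. The falls were in Tut4 (-2.44 and -2.37) and Tut7 (-1.38 and -1.14), which add uridines to RNA ends, Mif4gd, the Slbp partner in translation (-1.48 and -1.42), and Hinfp, an H4 promoter factor (-1.01 and -0.86). Npat, the coactivator of histone transcription, fell in Aim2-/- only (-0.37, against -0.11 in WT, not called), and edgeR called no gene of the list for a difference in response between genotypes (0, 1 and 3 at an unadjusted p under 0.05 at 3, 6 and 24 h), though with mouse as a block Lsm10 was called at 6 h. At 3 h 8 of the list were lower and 1 higher in WT (6 and 3 in Aim2-/-), and at 6 h 8 and 6 (9 and 6), beside 32.6% and 30.7% of all genes called at 3 h and 51.1% and 51.2% at 6 h in WT and Aim2-/-.

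**Figure D5:**
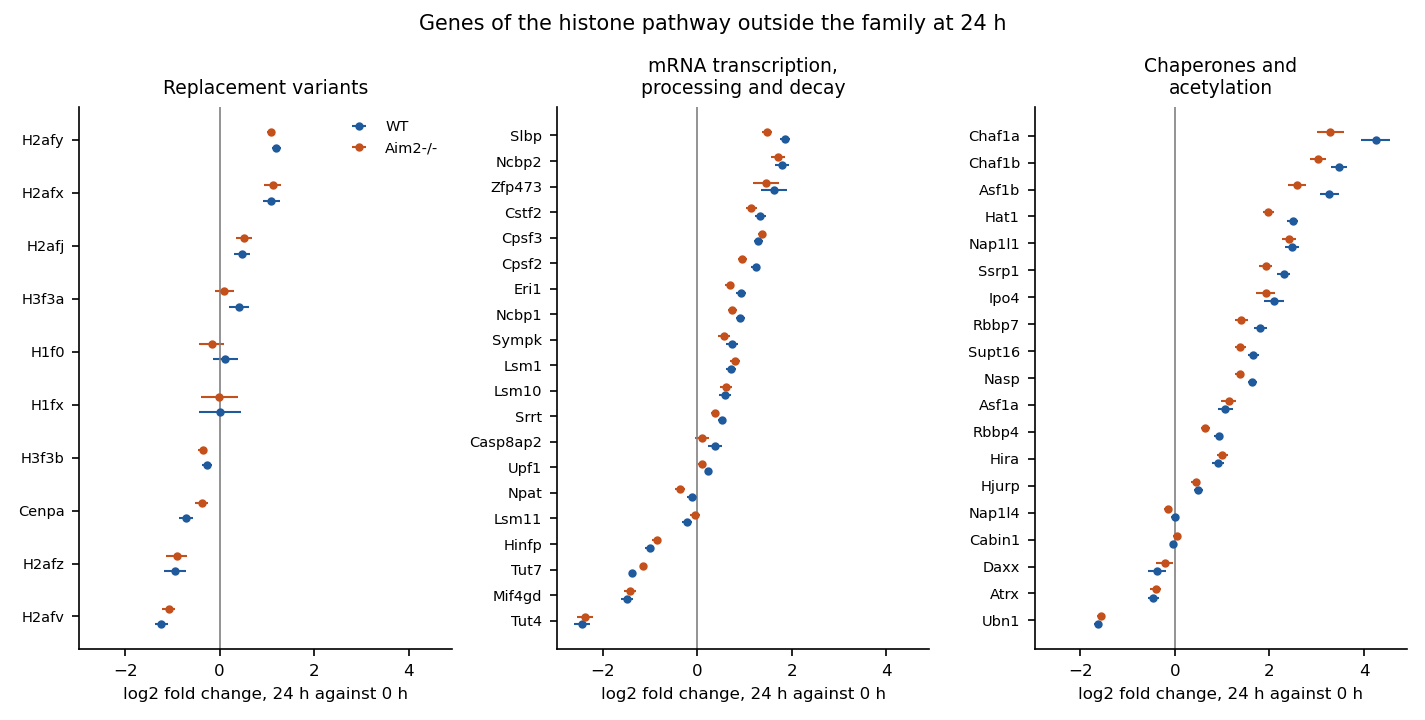
log2 fold change at 24 h against 0 h, with its SE as a bar, for 10 replacement variants, 20 genes of histone mRNA transcription, processing and decay and 19 chaperone genes, in WT and Aim2-/- cells. Slbp, Chaf1a and Hat1 lie to the right of 0, Tut4 and H2afv to the left, and the variants spread to both sides.

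Histone chaperones and acetyltransferases, which receive new histones, mostly rose: 14 of 19 in each genotype, with 2 lower, beside 36.6% and 36.8% of all genes higher and 34.8% and 33.5% lower. Chaf1a, the large subunit of the replication-coupled chaperone CAF-1, went from 12.4 to 235 CPM in WT (4.25, and 3.29 in Aim2-/-). Asf1b rose by 3.27 and 2.58, Hat1, which acetylates new H4, by 2.49 and 1.98, and Nasp, a carrier of H3 and H4, by 1.64 and 1.37. Ubn1 (-1.62 and -1.57) and Atrx (-0.45 and -0.41), both tied to deposition of H3.3 outside replication, fell. Other listed genes of this kind differed: Hira was higher and Daxx lower at 24 h in all 3 mice of each genotype, and Cabin1 was mixed. All 20 genes of S phase entry and DNA synthesis rose in both genotypes, with a median of 3.12 in WT and 2.52 in Aim2-/-, Cdc6 by 5.22 and 3.84 and Rrm2 by 5.10 and 4.10. For the difference in response at 24 h, edgeR and limma-voom called none of them, with 11 at an unadjusted p under 0.05 in edgeR. DESeq2 called Mcm5. With mouse as a block, edgeR called Mcm2, Mcm5, Mcm6 and Rrm1, and Hat1 of the chaperone list. At 3 and 6 h, 5 and 8 of the 20 S phase genes were called in WT, in mixed directions, beside 32.6% and 51.1% of all genes. Between genotypes at 6 h Asf1b, Chaf1a and Chaf1b were called higher and Atrx lower in Aim2-/-, and Ccne1, Cdc6, Rrm2 and Tyms higher. Over all genes, 8.78% were called higher and 7.01% lower in that comparison. Without mouse WT 1, Atrx (-0.28, adjusted p = 0.123) and Ccne1 (1.07, adjusted p = 0.0508) were lost and the other 6 were called (adjusted p = 0.00934 to 0.0252).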

How the data were processed

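Total RNA of splenic CD4+ T cells from 6 mice at 4 times was sequenced from poly(A)-selected, stranded libraries as 51-nt single-end reads. The authors aligned reads to GRCm38 with STAR and deposited raw counts per gene. Their processing notes also name DESeq2 and edgeR. The use of strand and of reads matching several genes is not given in the sources used here. Symbols of 54409 of the 54446 gene IDs were matched.

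Counts were scaled by TMM and fitted in edgeR 4.0.16 (R 4.3.3) with 1 quasi-likelihood model over all 24 libraries and 8 groups, after filterByExpr with a minimum count of 10, leaving 15325 genes. A call is a Benjamini-Hochberg adjusted p under 0.05 over those genes. Alternatives used DESeq2 1.42.0, limma 3.58.1 (voom), other scaling, filters, the libraries compared alone, mouse as a block, and each library or mouse left out; leaving out mice other than WT 1 was chosen after seeing the data. Libraries of the same mouse deviated together (r = 0.139 to 0.567 over 36 pairs, against -0.432 to 0.0742 over 72 pairs of different mice), so the labels' mouse numbers pair the times within a genotype. Scripts were tested on simulated data.

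Members, gene lists and tests were chosen with earlier results of these data known. Named were the 2 members of highest mean CPM in each class, the 5 largest rises and falls at 24 h, up to 5 calls per genotype comparison and the members at the count minimum. Other members were named after their values were seen. Stem-loops and unique windows came from the GRCm38 transcripts, and promoters from RefSeq (GRCm38.p6). Histone protein sequences were not used here. The sum of 1 marker list is not reported here.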

Additional observations from a re-analysis of the deposited data

Results flagged for a closer look

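Hist2h3c2, an H3 gene too low to be tested, moved in opposite directions by 6 h in the 2 genotypes. Its mean was 0.407 CPM at 0 h and 0.170 CPM at 6 h in WT, lower in all 3 mice, and 0.229 CPM at 0 h and 0.431 CPM at 6 h in Aim2-/-, higher in all 3 mice. The difference was not tested in the model, and with no filter on low counts no member was called for it. Single libraries held 1 to 11 counts. At 24 h it was at 0 in 5 of the 6 libraries.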

How the results depend on the processing

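No called value changed direction under the alternatives run. The counts at 24 h, 35 and 34 with all libraries, lay within 32 to 36 members in WT and 35 to 37 in Aim2-/- when a library or mouse was left out. Early counts moved more: 3 to 6 (WT 3 h), 5 to 8 (WT 6 h), 1 to 3 (Aim2-/- 3 h) and 2 to 6 (Aim2-/- 6 h). The genotype counts ran from 0 to 1, 0 to 3, 1 to 4 and 0 to 2 at 0, 3, 6 and 24 h, and those for the difference in response stayed at 0. The counts of 3 at 3 h and 2 at 24 h arose without mouse Aim2-/- 2, and 1 member remained called at 6 h without mouse WT 3 or WT 4. With no filter on low counts, 3 members were called at 3 h in WT and 1 in Aim2-/-. With a mean of at least 1 CPM only 9 members were tested; 9 were called at 24 h in each genotype, 3 at 3 h and 3 at 6 h in Aim2-/-, and 2 between genotypes at 6 h. Scaling by library totals gave 2 calls at 3 h in Aim2-/-. Fits of only the libraries compared gave 2 at 3 h and 3 at 6 h in Aim2-/-, and 0 and 1 between genotypes at 3 and 6 h. Fewer genes or samples enter the settings of 1 CPM and of the libraries compared; for the others the cause was not tested.

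With mouse as a replicate block, 7 and 6 members were called at 3 h in WT and Aim2-/- and 36 at 24 h in Aim2-/-, and no count moved by over 1.5 times. The mouse number shared between genotypes names different animals, and same-numbered libraries correlated at -0.165 to 0.268 over 8 pairs. With that number as a replicate block, 3, 3, 4 and 2 members were called between genotypes at 0, 3, 6 and 24 h. Over the values of named members, 932 alternatives kept the side of the threshold and 106 lost the call. Low counts limit most members before 24 h, when under 8 had a mean of 0.5 CPM.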
